A study of Mus musculus with 4 samples.

Results

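The regions described here are the ChIP-seq peaks of KMT9beta and of histone H4 monomethylated at lysine 12 (H4K12me1) whose midpoint lay in the 3' untranslated region (3' UTR) of a protein-coding gene. A peak was included when its midpoint fell in a 3' UTR of a GENCODE vM21 protein-coding transcript, fell in no coding sequence, and the peak stayed clear of every start of a protein-coding gene by more than 1 kb. On chromosomes 1 to 19, 1895 of 89936 KMT9beta peaks met this rule (2.11%, exact 95% interval 2.01 to 2.20), as did 1279 of 60058 H4K12me1 peaks (2.13%, 2.02 to 2.25). Together these are 3174 of the 177109 peaks in the 3 lists of the series. The chromatin came from organoids of a mouse colorectal tumour induced with azoxymethane (AOM), a carcinogen, and dextran sulfate sodium (DSS), which injures the colon lining. All libraries were from clone 3 at passage 14, a single line. Each antibody (KMT9alpha, KMT9beta, H4K12me1) had 1 library, and an input library is not analysed here. Tamoxifen (1 µM) and its vehicle both appear in the labels, which do not assign either to these libraries and give no genotype. No treatment was compared. The depth is unknown and no value has a replicate check. The intervals below cover counting over peaks or genes only, and neighbouring peaks are not independent.

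KMT9 is a methyltransferase made of a catalytic subunit, KMT9alpha (product of N6amt1), and a partner subunit, KMT9beta (product of Trmt112), and it writes H4K12me1. KMT9beta is also known as a partner of other methyltransferases. The 3' UTR follows the stop codon in the last exons of a gene and ends at the polyadenylation site, which is usually preceded by the signal AATAAA or a variant such as ATTAAA. In the mRNA it carries sites for microRNAs and RNA-binding proteins. In chromatin it is the end of the transcribed unit, far from the promoter where the enzyme and its mark are best known.

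The sequences below are from leading overlapping pairs of a KMT9beta and an H4K12me1 peak in the same 3' UTR, and they are shown because the results turn on base composition and on the end of the UTR. For each gene the first line has 30 bases at the centre of the part shared by both peaks, with CG dinucleotides in capitals. The second line has the last 30 bases of the longest annotated 3' UTR of the gene, with AATAAA or ATTAAA in capitals. All are written 5′ to 3′ on the gene's strand from GRCm38.p6 (RefSeq), the assembly behind mm10.
Tcf23 centre, chr5:30974860-30974889, plus strand: ctgaggccaagtCGagtcccagcaggctgc
Tcf23 end, chr5:30976989-30977018, plus strand: tgAATAAAgttttattgggatagccctgta
Mknk2 centre, chr10:80666474-80666503, minus strand: tgcttagctccttgccctgggacagaccta
Mknk2 end, chr10:80665327-80665356, minus strand: tgtaaggatttAATAAAagtcatttaaaaa
Gipc3 centre, chr10:81337846-81337875, minus strand: gggagtctccagtcctgggcccagcccctt
Gipc3 end, chr10:81335265-81335294, minus strand: gtgggcAATAAAggagcccgcacctccaca
Bcl9l centre, chr9:44509822-44509851, plus strand: gttaactttaaaaagttttgtttttcctcc
Bcl9l end, chr9:44511867-44511896, plus strand: aggtgcctttttATTAAAaagagaaaattc
Lars2 centre, chr9:123461857-123461886, plus strand: gcttgatcttgattttcagtaggaatacag
Lars2 end, chr9:123462635-123462664, plus strand: accattgaattAATAAAtgttgtgaaccat
The central windows of Tcf23, Mknk2 and Gipc3 had 66.7%, 56.7% and 70.0% GC, and only that of Tcf23 held a CG dinucleotide. The central windows of Bcl9l and Lars2 had 26.7% and 36.7% GC, so a 30-base window need not show the GC content of the peak around it. The end windows had 16.7% GC in Mknk2, 26.7% in Bcl9l and Lars2, 33.3% in Tcf23 and 60.0% in Gipc3. Each of these 5 ends held a polyadenylation signal, but of the other leading pairs only Scrt1 had one at its end, and Dagla and Tmem184b had neither AATAAA nor ATTAAA there.

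Both lists were denser in 3' UTRs than in the genome at large, and less dense there than in coding exons. The 29.6 Mb of 3' UTR open to the rule, 1.24% of the sequence, held 64.0 KMT9beta peaks per Mb, against 37.5 over all sequence, 174 in coding exons, 34.01 in introns, 21.2 between genes and 231 at promoters. For H4K12me1 the values were 43.2 per Mb in 3' UTRs, 25.1 over all sequence, 113 in coding exons, 22.7 in introns, 14.2 between genes and 155 at promoters. KMT9alpha had 311 peaks of this kind among 25700 (1.21%, 1.08 to 1.35), which is 10.5 per Mb against 28.5 in coding exons, 6.27 in introns, 4.46 between genes and 132 at promoters. This is the order of the other lists, although promoters held 48.5% of its peaks and the density over all sequence was 10.7. The KMT9alpha list was the shortest, and how sensitive each list is was not tested.

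The 3' UTR peaks had scores near those of other peaks away from promoters for H4K12me1, and somewhat higher scores for KMT9beta. The deposited score is a value per peak whose meaning no label or header states. Its median was 88.3 for the KMT9beta members, against 84.4 in coding exons, 79.3 in introns and 77.3 between genes. For H4K12me1 the medians were 79.4 in 3' UTRs, 80.25 in coding exons, 77.6 in introns and 78.2 between genes. Promoter peaks had medians of 148 and 89.2. Of the KMT9beta members 208 scored 200 or more, and of the H4K12me1 members 57 did. Median widths were 1024 bp for KMT9beta and 609 bp for H4K12me1, against 929 and 612 bp for all peaks outside promoters. Many peaks spilled over the ends of the UTR: 23.9% of the KMT9beta members and 11.3% of the H4K12me1 members were wider than the longest 3' UTR of their host gene. Still, 90.9% and 95.9% had at least 50% of their bases in 3' UTR. The start rule dropped 353 KMT9beta and 236 H4K12me1 peaks. KMT9beta peaks in Nudt18 (score 171.8) and Cyb561 (79.7) were kept with 1003 and 1008 bp to the nearest start, while those in Stk16 (284.8) and Bap1 (133.8) were dropped for 11 bp of overlap each. H4K12me1 peaks in Btbd2 (104.5) and Cpne5 (247.2) were kept at 1001 and 1002 bp, and those in Igf2 (71.9) and Pcyt2 (239.4) were dropped for 2 and 17 bp.

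The 3' UTR sequence under peaks was richer in GC than the rest, as was that under peaks elsewhere. The 300 bp at the midpoint had a median GC content of 54.7% for KMT9beta and 55.0% for H4K12me1, against 42.7% over 87840 tiles of 300 bp covering the eligible 3' UTRs. KMT9beta peaks had medians of 53.7% in introns, 54% between genes and 57.7% in coding exons. For H4K12me1 these were 53.7%, 53.7% and 58%, so a high GC content was not particular to the 3' UTR peaks. When tiles were divided into 5 classes by GC content, 1.05% of the poorest class (13.3 to 35.0% GC) and 38.9% (38.1 to 39.6) of the richest (50.3 to 81.0% GC) were touched by a KMT9beta peak. The same shares for H4K12me1 were 0.331% and 16.5% (16.0 to 17.1), and for KMT9alpha 0.101% and 4.53% (4.23 to 4.85). The share rose from each class to the next in all 3 lists. Both KMT9beta and H4K12me1 touched 0.142% of the poorest tiles and 10.8% of the richest.

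**Figure D1:**
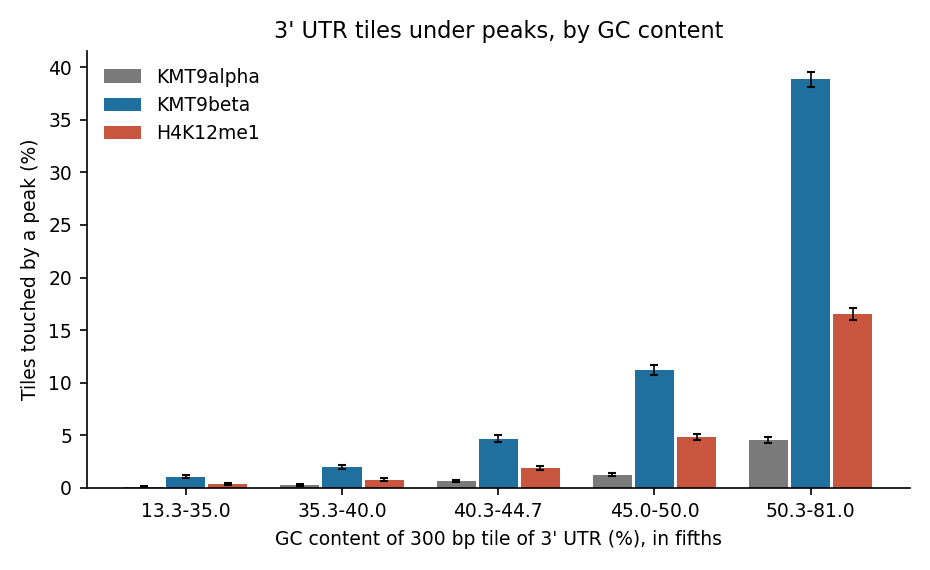
Share of 300 bp tiles of eligible 3' UTR touched by a peak of each library, in 5 classes of tile GC content. Bars are percentages with exact 95% intervals. KMT9beta goes from 1.05% to 38.9% and H4K12me1 from 0.331% to 16.5%.

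Few members lay in CpG-island-like sequence. The median number of CpG dinucleotides in the central 300 bp was 5 in both lists and 2 in the tiles, and the median ratio of observed to expected CpG was 0.235 for KMT9beta, 0.233 for H4K12me1 and 0.185 for the tiles. Windows with a ratio of 0.6 or more and at least 50% GC made up 2.48% (1.83 to 3.28) of the KMT9beta members, 3.36% (2.44 to 4.50) of the H4K12me1 members and 0.466% of the tiles. The other 1848 KMT9beta and 1236 H4K12me1 members lacked such a window. Among tiles that met both limits, 51.3% were touched by KMT9beta and 27.4% by H4K12me1, against 11.5% and 4.81% of the others. Among the named members the most CpG dinucleotides were under the KMT9beta peak of Hoxb8, a homeobox transcription factor of body patterning (chr11:96283992-96284998, score 108.8), whose central 300 bp had 69.7% GC and 30 CpG dinucleotides. The sequenced reads and their GC content were not analysed here, and whether library preparation bears on the relation with GC was not tested.

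Polyadenylation signals were scarcer at the peaks. AATAAA on the gene strand occurred in 9.60% (8.31 to 11.0) of the central 300 bp windows of KMT9beta members and in 9.23% (7.70 to 10.9) of those of H4K12me1 members, against 22.9% of all tiles. ATTAAA occurred in 4.96% and 4.30%, against 16.6%. These A- and T-rich letters are rarer in GC-rich sequence, so the counts are not separate from the GC content. At the ends of the host genes signals were not scarcer. The last 30 bases of the longest 3' UTR held AATAAA in 55.9% (53.6 to 58.3) of KMT9beta hosts, 55.4% (52.5 to 58.2) of H4K12me1 hosts and 52.7% of all eligible genes, and ATTAAA in 14.9%, 14.2% and 14.2%. A match is a description of letters only.

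Peaks lay more often towards the stop codon than towards the 3' end. In 3' UTRs of at least 500 bp, the first of 5 equal parts after the stop codon held 28.1% (25.9 to 30.3) of the KMT9beta midpoints and 26.6% (24.1 to 29.3) of the H4K12me1 midpoints, against 19.2% of eligible bases. The last part held 12.4% (10.9 to 14.1) and 13.6% (11.7 to 15.8), against 20.2%. In the 3 parts between, the H4K12me1 shares were 20.5%, 18.997% and 20.2%, and each interval held the share of eligible bases. The KMT9beta peak also reached into coding sequence in 48.2% of members and crossed the 3' end of the gene in 24.2%, and the narrower H4K12me1 peaks did so in 32.9% and 15.95%. The median distance of the midpoint from the stop codon was 759.5 bp for KMT9beta and 746 bp for H4K12me1.

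**Figure D2:**
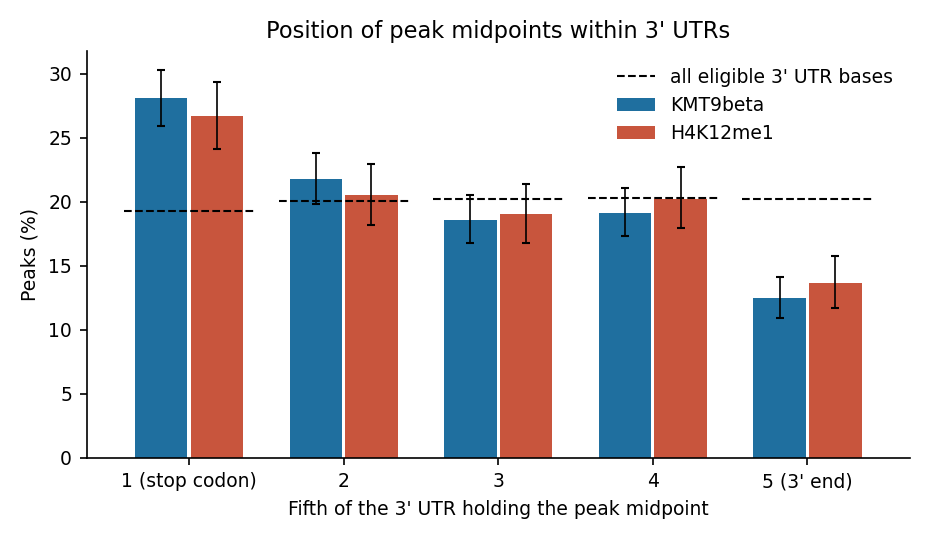
Share of peak midpoints in each of 5 equal parts of the 3' UTR from the stop codon to the 3' end, for UTRs of at least 500 bp. Bars are percentages with exact 95% intervals, and dashed lines give the share of eligible bases, 19.2% in the first part and 20.2% in the last.

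The comparison of the lists asked how often the enzyme subunit and the mark sat on the same 3' UTR sequence. Of the H4K12me1 members 58.1% (55.3 to 60.8, 743 peaks) overlapped a KMT9beta peak, a share above that of intron peaks (47.0%, 46.3 to 47.6) and below that of coding exon peaks (63.0%, 61.1 to 64.7) and promoter peaks (82.3%). Of the KMT9beta members 32.0% (29.9 to 34.1, 606 peaks) overlapped H4K12me1, against 27.4% (26.9 to 27.9) in introns, 31.4% (30.04 to 32.8) in coding exons and 51.5% at promoters. KMT9alpha was rarer at both than at promoter peaks. It overlapped 8.87% (7.62 to 10.2) of the KMT9beta members and 10.6% (8.92 to 12.4) of the H4K12me1 members. Promoter peaks overlapped it in 52.3% and 55.7% of cases. The shares of the members depended on which peaks were kept. They were 2.68% and 3.31% with peaks at or above the median score of each list, and 16.8% and 14.8% with the 25700 highest peaks of each. The overlap with KMT9alpha of other peaks away from promoters is not given here. A low share is thus not shown to be particular to 3' UTRs. KMT9beta members without either partner made up 64.3% (62.1 to 66.5), and H4K12me1 members without either 39.9% (37.2 to 42.6). All 3 met at 98 KMT9beta members (5.17%).

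Width and GC content went with the overlap. In 4 classes of width, narrowest to widest, 14.0%, 22.3%, 32.5% and 56.2% of KMT9beta members overlapped H4K12me1. For H4K12me1 members overlapping KMT9beta the shares were 48.4%, 51.9%, 59.6% and 77.0%, and those of intron peaks in the same classes were 35.4%, 40.6%, 46.5% and 72.0%. In 5 classes of GC content, poorest to richest, 39.2%, 42.4%, 54.1%, 61.6% and 76.0% of H4K12me1 members overlapped KMT9beta, against 29.8%, 35.4%, 44.8%, 56.8% and 70.8% of intron peaks and 27.5%, 37.8%, 42.8%, 59.8% and 74.7% of coding exon peaks. The pooled share was thus below that of coding exons, but within each GC class it was above it, with exact intervals that overlapped in all 5 classes. Against introns the 3' UTR share was the higher one in every width and GC class. The intervals overlapped in GC classes 2, 4 and 5 and in the widest class of width. With all peaks reduced to 200 bp at the midpoint the rule gave 1348 H4K12me1 and 2043 KMT9beta members, of which 17.4% and 11.2% overlapped the other list.

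**Figure D3:**
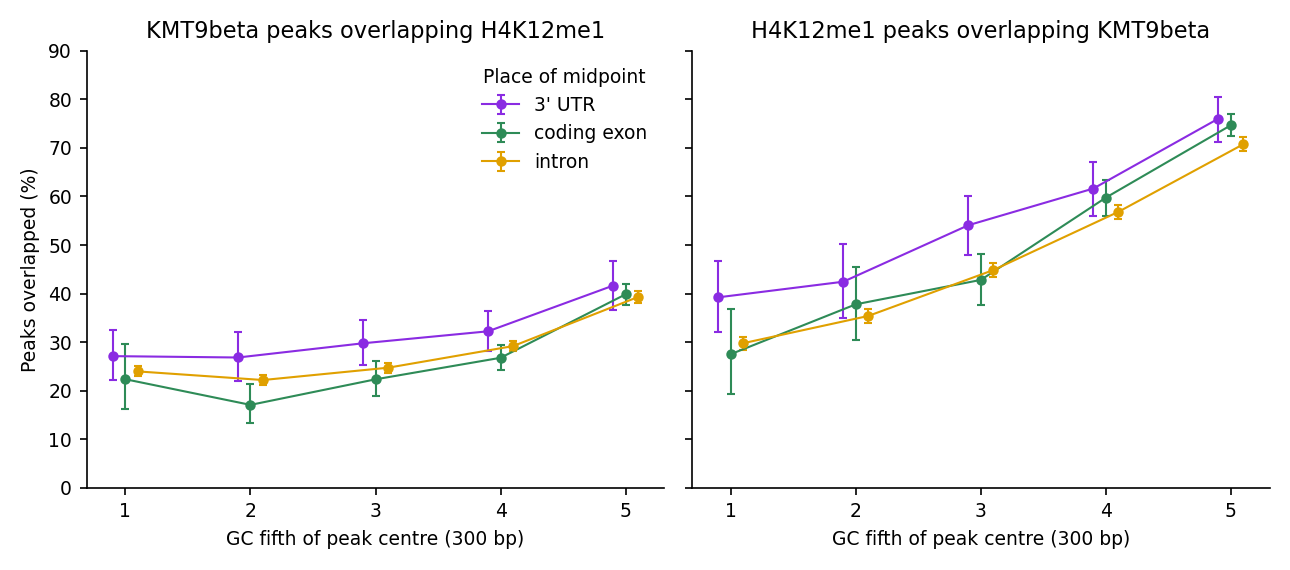
Share of peaks overlapped by the other list against the GC content of the central 300 bp in 5 classes, for peaks in 3' UTRs, coding exons and introns. Points are percentages with exact 95% intervals. H4K12me1 peaks in 3' UTRs go from 39.2% to 76.0%.

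Where a KMT9beta member and an H4K12me1 member overlapped, the mark mostly lay within the broader subunit peak. There were 469 such pairs, which took 23.8% of the KMT9beta members and 36.2% of the H4K12me1 members. The centres were a median of 247 bp apart, and the H4K12me1 peak was wholly inside in 55.4% (50.8 to 60.0) of pairs. Counting 1 partner per H4K12me1 member, the one sharing most bases where there were several, the KMT9beta partner was a 3' UTR peak in 61.5% of cases, reached a promoter window in 12.8% and was centred in a coding exon in 11.8%.

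Lars2, which codes for the mitochondrial leucyl-tRNA synthetase, had the highest 3' UTR peak in both lists. The KMT9beta peak (chr9:123461205-123462374) scored 1191.5 and the H4K12me1 peak (chr9:123461370-123462392) 1065.5, against 846.4 and 576.6 for the next members. A KMT9alpha peak of score 1648.5 lay in the same 3' UTR, the fourth in its own list of 3' UTR peaks. The Lars2 promoter carried KMT9alpha (1245.5) and KMT9beta (257.1) and no H4K12me1 peak. All 3 libraries were thus high in a UTR of 986 bp, and its GC content at the KMT9beta midpoint, 53.7%, was close to the median of the members. The input library was not examined at this site. Whether reads from similar sequence elsewhere in the genome were placed there was not tested, so the height may not be particular to these antibodies.

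Behind Lars2 the KMT9beta list was led by broad peaks of high score. Itprip, which codes for a protein that interacts with the inositol trisphosphate receptor, scored 846.4 over 4650 bp. Dagla, the diacylglycerol lipase that makes the endocannabinoid 2-arachidonoylglycerol, scored 687.7. Vps37b, a subunit of the ESCRT-I sorting complex, scored 680.2. The asparaginase gene Aspg scored 612.8, the RNA helicase gene Ddx54 574.3, Fam222a 566.0 and Gipc3 564.8. Each of these peaks, and that of Lars2, was wider than the longest 3' UTR of its gene, as in Aspg (4184 bp against 941 bp). A part of each peak thus lay outside that UTR. Of these 8 leading peaks with Lars2, 7 overlapped an H4K12me1 peak and Fam222a did not. Over all KMT9beta members the share was 32.0%, and it was higher among wide peaks, as given above. All 8 genes also carried a KMT9beta promoter peak, of score 81.9 in Vps37b to 440.0 in Fam222a, as did 94.5% of all KMT9beta hosts. The peaks of Itprip and Dagla lie on chromosome 19, and those of Vps37b, Ddx54 and Fam222a on chromosome 5.

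In the H4K12me1 list Lars2 was followed by Nkx2-3 and Slit1. Nkx2-3, a homeobox factor of gut and spleen, scored 576.6, and Slit1, an axon guidance ligand, 473.0. Mknk2, a kinase that phosphorylates the translation factor eIF4E, scored 449.5, Scrt1, a zinc finger repressor, 444.1, and Tcf23, a basic helix-loop-helix factor, 371.6. Armh3 followed with 355.3, and Sufu, the inhibitor of Hedgehog signalling, with 354.7. Except in Scrt1 and Sufu, these peaks were wider than the longest 3' UTR of the gene, as in Nkx2-3 (3599 bp against 847 bp). All 8 leading peaks overlapped a KMT9beta peak, against 58.1% of all H4K12me1 members, a share that was also higher among wide peaks. Of the 8, the peaks of Nkx2-3, Slit1, Armh3 and Sufu lie on chromosome 19.

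Overlapping pairs of best joint rank were those of Lars2, Mknk2, Tcf23, Bcl9l, Dagla, Scrt1, Tmem184b and Gipc3. In Tcf23 the KMT9beta peak (score 528.1, 4066 bp) lay wholly within the H4K12me1 peak (4305 bp) and KMT9alpha was present too, while the promoter had H4K12me1 alone (446.5). In Mknk2 the pair (560.6 and 449.5) shared 1194 bp. In Bcl9l, a coactivator of beta-catenin, the KMT9beta peak (539.7, chr9:44508567-44511800) overlapped 2 H4K12me1 members with scores of 240.9 and 234.7. Tmem184b had 361.8 and 284.5, and its promoter had all 3 libraries.

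Hosts of 3' UTR peaks were genes with long, GC-rich 3' UTRs. The KMT9beta members fell in 1718 of the 18971 genes with eligible 3' UTR (9.06%), the H4K12me1 members in 1188 (6.26%), and 531 genes (2.8%) hosted both. The 531 are 30.9% of the KMT9beta hosts and 44.7% of the H4K12me1 hosts, and in 435 of them (81.9%) the member peaks overlapped. Median eligible UTR length was 2072 bp in KMT9beta hosts and 1931 bp in H4K12me1 hosts, against 1030 bp in all eligible genes. Median GC content of the UTR was 51.0% and 51.5%, against 43.5%. Across 5 classes of UTR length the share hosting a KMT9beta peak went from 1.06% to 17.8% and that hosting H4K12me1 from 0.872% to 11.7%. A longer UTR has more bases for a midpoint to fall in. A rise with length thus follows from the rule itself and does not show a preference for long UTRs. Across 5 classes of UTR GC content the shares went from 0.132% to 24.3% and from 0.0791% to 17.5%. Among genes in both the longest and the most GC-rich class, a KMT9beta peak was present in 73.4% of those with a KMT9beta promoter peak (246 of 335) and in 6 of the 10 without (60.0%, 26.2 to 87.8). These 10 genes are too few to show whether the shares differ. In the longest class and the next GC class the shares were 39.9% (36.1 to 43.8, of 652) and 18.97% (9.87 to 31.4, of 58). For H4K12me1 and its own promoter peak they were 26.9% (23.01 to 31.01, of 495) and 17.7% (12.8 to 23.4, of 215) there. In the longest and most GC-rich class they were 52% (46.2 to 57.8, of 300) and 40% (25.7 to 55.7, of 45). Both pairs of H4K12me1 intervals overlapped.

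The promoters of host genes carried peaks more often than promoters at large. A KMT9beta promoter peak was present in 94.5% (93.3 to 95.6) of the KMT9beta hosts, against 70.9% of all eligible genes. An H4K12me1 promoter peak was present in 77.7% (75.2 to 80.0) of the H4K12me1 hosts, against 51.3%. KMT9alpha, with 311 peaks in 3' UTRs, was at the promoter of 79.0% of KMT9beta hosts and 76.5% of H4K12me1 hosts, against 58%. All 3 were at the promoters of 64.9% and 65.1%, against 40.9%. None was present at 2.74% (47 genes) and 4.63% (55 genes), against 24.8%. Among the 531 hosts of both lists 97.2% had KMT9beta, 84.9% had H4K12me1 and 0.942% (5 genes) had none.

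The size of the difference varied with the GC content of the UTR. Within the class of most GC-rich UTRs, KMT9beta was at the promoter of 95.6% of KMT9beta hosts and of 88.0% of genes that hosted neither list, and H4K12me1 was at the promoter of 81.6% of H4K12me1 hosts and 70.1% of genes with neither, both smaller gaps than over all genes. For KMT9alpha the shares were 76.5% of KMT9beta hosts and 65.0% with neither in that class, but 80.0% (of 40 hosts, 64.4 to 90.9) and 53.3% in the second poorest class, a gap no narrower than over all genes. Read the other way, 25.7% (24.3 to 27.2) of genes of that class with a KMT9beta promoter peak had a KMT9beta UTR peak, and 11.1% (8.07 to 14.7) of those without. For H4K12me1 the shares were 19.4% (17.9 to 20.9) and 12.2% (10.2 to 14.3). In the next class they were 16.7% and 4.27% for KMT9beta and 11.7% and 5.88% for H4K12me1. In the class of poorest GC, 2 of 1800 genes with and 3 of 1994 genes without a KMT9beta promoter peak had a UTR peak, so no difference was detectable there. Promoter CpG content was checked too: in the class of fewest promoter CpGs, of 3, KMT9beta was at the promoter of 80.2% of its hosts and 33.3% of all genes. In the class of most promoter CpGs the shares were 98.7% and 96.9%, and for KMT9alpha 91.9% of KMT9beta hosts and 91.3% of all genes. H4K12me1 was there at the promoter of 86.9% of its hosts and 73.5% of all genes. Peaks elsewhere in the gene body were also more frequent in hosts. KMT9beta was there in 77.2% of KMT9beta hosts and 46.6% of all eligible genes, and H4K12me1 in 71.0% of H4K12me1 hosts and 38.8% of all. The hosts were also longer genes, with medians of 28502 and 28560 bp against 19703 bp, and no share at equal gene length is given here.

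**Figure D4:**
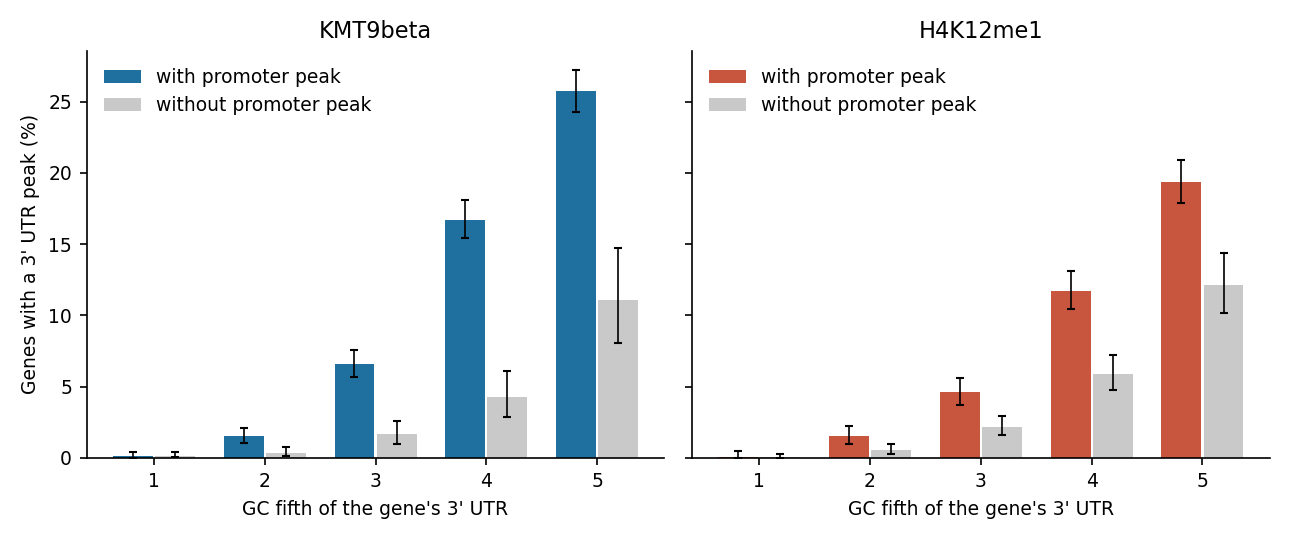
Share of genes with a 3' UTR peak of KMT9beta (left) or H4K12me1 (right), split by whether the promoter carries a peak of the same library, in 5 classes of 3' UTR GC content from poorest to richest. Bars are percentages with exact 95% intervals. In the richest class KMT9beta has 25.7% and 11.1%.

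Genes with a UTR peak but no promoter peak of any library were few and had modest scores. The KMT9beta members of highest score among them were in 1700029H14Rik (159.0), Fam243 (149.4), Hpse2 (149.0), 4933414I15Rik (134.1), Cpn2 (120.0) and Mlc1 (106.9). The H4K12me1 members were in Pkdrej (133.5), Vmn1r223 (120.5), March10 (112.3), Gm10471 (105.4), Kirrel (105.4) and Vmn1r43 (100.5). Several are known for tissues other than the gut, such as the vomeronasal receptor genes Vmn1r223 and Vmn1r43 and Pkdrej, a polycystin relative of sperm. The 5 genes that hosted both lists without any promoter peak were Unc5cl, Pkdrej, Bsx, Olfr1459 and Hpse2.

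A few genes collected several peaks in their 3' UTRs. D10Wsu102e had 6 KMT9beta and 8 H4K12me1 members, but its longest annotated 3' UTR spans 122583 bp, and only 2 of each list overlapped the other list. Ttbk1, a kinase of tau and tubulin, had 4 and 5 members, and all 4 KMT9beta peaks overlapped H4K12me1. These were not all in the same UTR. The KMT9beta peaks at chr17:46442675-46443979 and chr17:46444169-46445495 lay outside its longest 3' UTR (6590 bp), in that of another transcript. The H4K12me1 members overlapping these peaks did so too. Cdk6, a kinase of the G1 phase of the cell cycle, had 3 KMT9beta and 5 H4K12me1 members along 10217 bp, with scores of 50.8 to 158.9 and 52.1 to 83.4. Sh3pxd2a, a scaffold of invadopodia, had 3 and 4 members, and Hdac4, a class IIa histone deacetylase, 4 and 2. The 4 Hdac4 peaks of KMT9beta scored 56.1, 62.6, 98.4 and 99.4, and its promoter had 561.8. A neighbour of the same list lay within 1 kb of 47.2% (44.9 to 49.5) of the KMT9beta members, against 35.3% of KMT9beta peaks in introns, and of 31.5% (29.0 to 34.1) of the H4K12me1 members, against 23.9%.

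Genes of colon identity and stemness were read as lists, beside the 9.06% and 6.26% of all eligible genes. Of 24 intestinal stem cell genes, 3 hosted KMT9beta (12.5%, 2.66 to 32.4) and 4 hosted H4K12me1 (16.7%, 4.74 to 37.4). These were Cdk6, Msi1, an RNA-binding protein of progenitor cells, Ephb2, a receptor of the crypt base, and for H4K12me1 alone Axin2, a feedback inhibitor of Wnt signalling. Msi1 (KMT9beta 187.6, H4K12me1 174.8) also had KMT9alpha under both peaks. The Ephb2 peaks (171.3 and 61.0) did not overlap the other list. Of 38 Wnt pathway genes, 3 hosted KMT9beta (Bcl9l, Gsk3b at 108.7 and Tcf7l1 at 60.4) and 3 hosted H4K12me1 (Bcl9l, Axin2 at 79.3 and the coreceptor gene Lrp5 at 69.8). Of 25 enterocyte and colonocyte genes, 4 hosted KMT9beta and 3 hosted H4K12me1. Among them were both caudal homeobox factors of intestinal identity, with overlapping peaks in Cdx1 (247.4 and 120.9) and Cdx2 (84.4 and 104.6). The others were the brush border genes Anpep (228.3) and Slc9a3 (63.6) for KMT9beta and the apolipoprotein gene Apoa1 (233.2) for H4K12me1, whose UTR of 64 bp is far shorter than the peak. The intervals of these lists all held the share of all eligible genes.

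Other lists ranged from none to a share of 33.3%. Of 24 chromatin writers and erasers, 8 hosted KMT9beta (33.3%, 15.6 to 55.3), and 4 hosted H4K12me1 (16.7%, 4.74 to 37.4). The DNA methyltransferase gene Dnmt3a (KMT9beta 176.8) and the demethylase gene Kdm4a (160.1) had the highest KMT9beta scores, and the methyltransferase gene Dot1l had 3 H4K12me1 members of 67.4, 89.5 and 97.1. The median UTR of this list was 2000 bp. Of 25 genes of the immediate-early and short-lived mRNA class, 6 hosted H4K12me1 (24%, 9.36 to 45.1), namely Atf3, Btg1, Btg2, Fosb, Jun and Klf2, and 3 of these hosted KMT9beta (12%, 2.55 to 31.2). The Btg2 peak, in an antiproliferative gene, scored 277.0 for H4K12me1 at a central GC content of only 40.0%. Of 20 factors of 3' end processing, Cpsf4 hosted H4K12me1 (81.1) and none hosted KMT9beta. Of 29 genes of microRNA action and mRNA decay, 3 hosted H4K12me1 (Auh, Hnrnpd and Tnrc6c) and the pair Auh and Tnrc6c hosted KMT9beta.

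Of the large families, C2H2 zinc finger genes hosted KMT9beta in 27 of 444 (6.08%, 4.05 to 8.72) and H4K12me1 in 18 (4.05%, 2.42 to 6.33), and their median UTR GC content was 40.6%. The highest was Zbtb7b (222.8), a T cell lineage factor. Solute carrier genes hosted them in 40 of 360 (11.1%, 8.06 to 14.8) and 28 (7.78%, 5.23 to 11.0), led by the zinc transporter gene Slc39a3 (446.5). Ribosomal protein genes by symbol had 2 and 3 hosts of 65, of which Rps6kc1, Rps6ka2 and Rps6ka4 are kinase genes taken in by their symbol. Homeobox cluster genes had Hoxb8 alone of 39. Protocadherin genes had 22 H4K12me1 hosts of 67 gene models (66 symbols, Pcdha11 having 2 models; 32.8%), but a single peak (score 67.5) in the 3' UTR shared by a gene cluster accounts for 21 of them, and Pcdh1 is the other one. None of 23 immune and 23 goblet or other secretory cell genes hosted a peak of either list, for which the upper exact limit is 14.8%. That limit lies above the 9.06% and 6.26% of all eligible genes. The median eligible UTRs of these lists were short, 493 and 335 bp against 1030 bp in all eligible genes. Of 24 fibroblast and endothelial genes, Col1a1 (96.2) and Vwf (78.4) hosted KMT9beta and the muscle filament gene Des (226.9) hosted H4K12me1. Peak lists hold no expression, so the cells present were not checked by their markers.

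Chromosomes differed in density. Chromosome 19 had 135 H4K12me1 members per Mb of eligible 3' UTR and 110 KMT9beta members, against 43.2 and 64.0 over all chromosomes, and it was the only chromosome where H4K12me1 exceeded KMT9beta. Chromosome 5 had 69.9 and 104, and chromosome 11 had 65.4 and 105. The lowest H4K12me1 density was 15.5 on chromosome 3, and the lowest KMT9beta density was 29.6 on chromosome 13. Chromosomes 5 and 19 also held 20.3% and 13.8% of the KMT9alpha members. Without them 29.3% of the KMT9beta members overlapped H4K12me1 and 54.3% of the H4K12me1 members overlapped KMT9beta. Whether chromosome copy number in this clone bears on these densities was not tested.

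**Figure D5:**
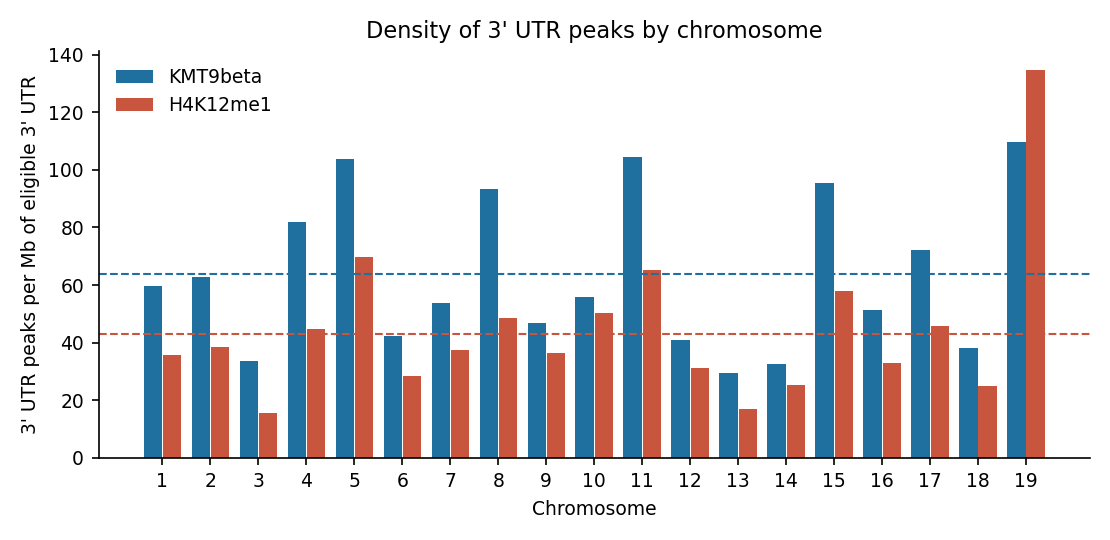
KMT9beta and H4K12me1 3' UTR peaks per Mb of eligible 3' UTR on chromosomes 1 to 19. Dashed lines give the value over all 19 chromosomes, 64.0 for KMT9beta and 43.2 for H4K12me1, and chromosome 19 reaches 110 and 135.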

How the data were processed

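ChIP-seq libraries were made for input and 3 antibodies, 1 library per antibody. Reads were mapped to mm10 per the labels' protocols, which name STAR, while the submitters' processing notes name Bowtie2. The authors deposited a peak list per library giving each peak's interval and score. The peak names begin with MACS. No source used here gives the caller's version, threshold or control, so scores were compared only within a list. Positions were read as BED intervals, and printed starts count from 1.

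Genes were those of GENCODE vM21 on GRCm38.p6. The stop codon was taken off the 3' UTR. Starts were those of all transcripts of protein-coding genes. Overlap was 1 bp or more. A promoter peak overlapped a start window of the gene. Tiles were 300 bp of eligible 3' UTR. UTR lengths and positions refer to the longest 3' UTR of the host gene. The midpoints of 1798 KMT9beta and 1208 H4K12me1 members lay inside it, and the other members have no position. Intervals are exact Clopper-Pearson at 95%. With 1 library per antibody no p-value was computed. The named genes were, per list, the 8 highest members, the 8 best pairs, the 6 highest without any promoter peak, the 5 genes with most peaks, the highest of each of the 15 lists, and those nearest the rule's limits. Where a count was small its genes were named after their values were seen. The members and the lists were chosen with earlier results of these data known. There were 10 alternatives. The placement and overlap steps were tested on simulated peaks. Software was matplotlib 3.10.9, scipy 1.17.1, pandas 2.3.3, numpy 2.4.6 and Python 3.11.15.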

Additional observations from a re-analysis of the deposited data

How the results depend on the processing

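Of 90 recomputed values, 10 alternatives for each of 9 results, 58 moved by less than counting error or 1.5 times and 32 by more. Keeping peaks at or above the median score of their list left 970 KMT9beta and 634 H4K12me1 members and 202 hosts of both. Taking the 25700 highest peaks of each list left 524, 526 and 116. KMT9beta members overlapping H4K12me1 (31.98% in the report) came to 27.1% when the shorter peak had to share at least 50% of its length, 27.01% with the score limit, 11.2% with peaks of 200 bp and 29.3% without chromosomes 5 and 19. For H4K12me1 members overlapping KMT9beta (58.1%) the same settings gave 51.0%, 51.3%, 17.4% and 54.3%, and equal list lengths gave 41.1%. Overlap of KMT9beta members with KMT9alpha (8.87%) was 2.68% with the score limit, 16.8% with equal list lengths, 3.38% with 200 bp and 7.16% without the 2 chromosomes. Overlap of H4K12me1 members with KMT9alpha (10.6%) was 3.31%, 14.8%, 4.01% and 7.97% in that order, and 7.74% with the 50% rule. KMT9beta hosts with a KMT9beta promoter peak (94.5%) came to 90.5% with the score limit, 82.7% with equal lengths and 93.2% with 200 bp. H4K12me1 hosts with an H4K12me1 promoter peak (77.7%) came to 74.2% with the 50% rule, 65.2% with the score limit, 64.6% with equal lengths, 81.3% with start windows of 2 kb and 73.7% with starts of transcripts typed as protein coding. That last set of starts gave 2071 and 1384 members. Fewer peaks or shorter peaks enter by construction in the score, length and width settings, and for the others the cause was not tested. No paired analysis was possible because each antibody had 1 library and no result comes from a test. No library could be left out for the same reason. Depth is unknown, so a missing peak does not show that the subunit or the mark is absent.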
